A study of Mus musculus with 192 samples.

Results

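The subject is a pair of microRNA genes, miR-146a and miR-146b, in fentanyl-exposed SKH-1 mice. Of the 1960 mature miRNAs in the small RNA tables of cortex, heart and lungs, 3 were followed, mmu-miR-146a-5p, mmu-miR-146b-5p and mmu-miR-146b-3p. They were chosen by name, from earlier results of these data in which their lung levels differed between fentanyl and sham mice, and that contrast is therefore given for them as a description without a test. The mice were 64 adult male SKH-1 Elite animals, a hairless outbred strain, injected under the skin with fentanyl citrate at 1 of 3 doses, 62 mg/kg for HNLD (the highest dose that killed none, called LOEL in part of the labels), 110 mg/kg for LD10 and 135 mg/kg for LD50, and sham mice were given Ringer's vehicle instead. Tissues were taken at 0h, which is 40 min after injection, 6h, 24h and 7d, with 4 mice in each of the 16 dose and time groups of a tissue. The deposited values are reads scaled by the trimmed mean of M values (TMM), called TMM-scaled reads here, and each tissue was scaled on its own.

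MicroRNAs are short RNAs that guide Argonaute proteins to partly complementary messenger RNAs, mainly through the seed at their 5′ end, and lower the output of those messages. miR-146a is best known as a brake on inflammation. NF-κB, switched on by Toll-like and interleukin-1 receptors, raises its transcription, and the mature miRNA represses IRAK1 and TRAF6, signalling proteins downstream of the same receptors. miR-146b has the same seed and comes from a different chromosome, and its transcription has been tied to other signals, STAT3 among them. Macrophages, lymphocytes and endothelial cells are known sources of both.

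The mature sequences are shown because the distinction between the loci rests on their 3′ ends. They are RefSeq sequences of the GRCm38.p6 table, written 5′ to 3′ with the seed (bases 2 to 8) in capitals, and all 3 members were matched.
miR-146a-5p: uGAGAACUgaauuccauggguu
miR-146b-5p: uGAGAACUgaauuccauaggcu
miR-146b-3p: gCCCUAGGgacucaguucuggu
Both 5p forms are 22 nt long and identical at 20 positions, the first 17 among them. They differ by G18A and U21C, with the base of miR-146a-5p first and positions counted from the 5′ end. Among 1738 mature mouse miRNAs of the RefSeq table, these 2 alone carry the seed GAGAACU, and miR-146b-3p shares its seed with none. How reads that fit both 5p forms were assigned is not given in the sources used here, so part of one level could belong to the other.

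The hairpins show where the arms lie, in capitals. Both were found unchanged in NCBIM37, the assembly that mm9 is based on.
Mir146: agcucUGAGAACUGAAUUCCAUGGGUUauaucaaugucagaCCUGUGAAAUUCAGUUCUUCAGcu
Mir146b: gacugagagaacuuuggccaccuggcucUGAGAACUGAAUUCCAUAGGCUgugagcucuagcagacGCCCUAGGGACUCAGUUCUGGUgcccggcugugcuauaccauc
Mir146, which gives miR-146a, spans 65 nt at chr11:43187899-43187963 on the minus strand and overlaps no annotated gene. The nearest ones are Gm12148, 11021 bp away, and Gm12147, 63309 bp away on the other side. Mir146b spans 109 nt at chr19:46417252-46417360 on the plus strand, inside an intron of Tmem180 on the same strand, and touches none of its exons.

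Tables held 190 libraries (63 of cortex, 64 of heart and 63 of lungs). Not analysed here were 1 cortex (sham, 24h) and 1 lung sample (LD50, 7d), which leaves 3 mice in these groups. Recovered reads per library ran between 1775669 and 8381425 for cortex, between 215163 and 5355085 for heart, and between 196853 and 6540900 for lungs. The profiles of 3, 2 and 10 libraries stood apart from the rest of their tissue. Of these, 4 resembled another tissue more than their own. The cortex libraries of sham mice FP96 (0h) and FP85 (6h) had correlations of 0.991 each with the median lung profile, and their neuronal marker miRNAs summed to 396 and 575 TMM-scaled reads, against 84795 to 134680 in the 60 cortex libraries that did not stand apart. For HNLD mouse FP38 at 6h, the heart library was nearest the lungs (r = 0.993) and the lung library nearest the heart (r = 0.963). Mouse numbers also follow dose. FP16 to FP58 hold all 16 HNLD mice, 15 LD10 mice and 2 LD50 mice. FP59 to FP88 hold 14 LD50 mice and 10 sham mice, and FP91 to FP96 with FPB2 hold 6 sham mice, all 4 of 24h among them, and 1 LD10 mouse. The effect of HNLD or LD10 and the effect of the number range cannot be told apart. Nothing in the labels says more on what the number stands for.

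Lungs had the highest levels of both 5p forms. miR-146b-5p averaged 2291 TMM-scaled reads there and ranked 55 of 1496 miRNAs detected, and miR-146a-5p averaged 1001 and ranked 72. In cortex, miR-146b-5p averaged 456 (rank 148 of 1582) and miR-146a-5p 120 (rank 240). The heart held similar amounts of both, with 127 for miR-146b-5p (rank 138 of 1369) and 141 for miR-146a-5p (rank 132). These means include the libraries that stood apart. Without those, miR-146b-5p averaged 1543 in lungs, 367 in cortex and 112 in heart. miR-146a-5p then averaged 632, 76.0 and 132 in the same order of tissues. Both 5p forms reached a value of 10 in every library. miR-146b-3p, the passenger strand of its hairpin, averaged 3.39 in lungs, 1.56 in cortex and 0.258 in heart, reached 10 in 0 libraries, and so passed the filter for testing (4 or more libraries with 10 or more TMM-scaled reads) in no tissue. Because the tables were scaled separately, levels of different tissues are set side by side and were not tested. In whole tissue, fewer cells of a type and less miRNA per cell cannot be told apart.

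**Figure D1:**
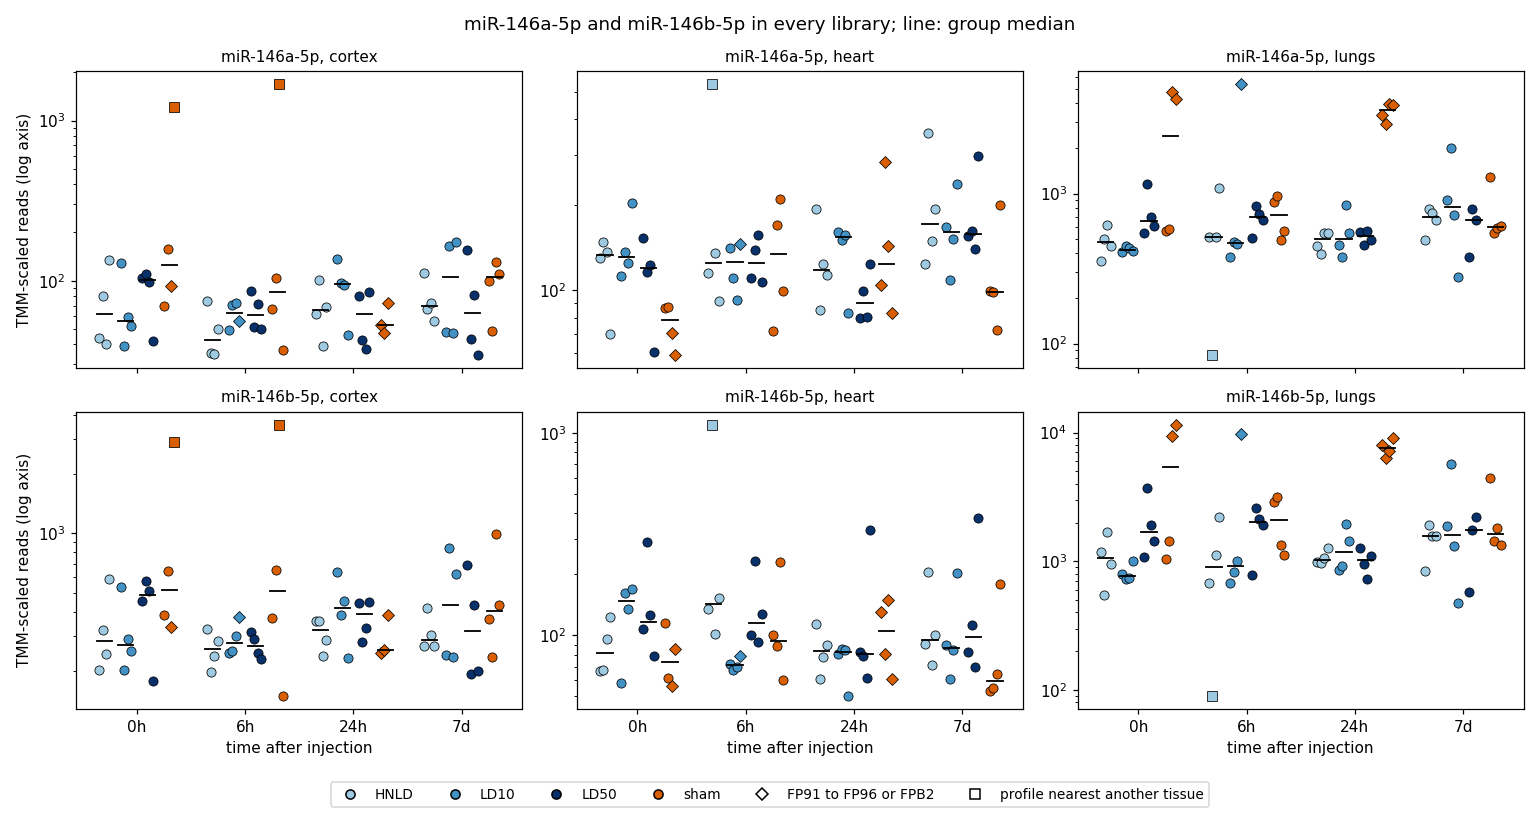
TMM-scaled reads (log axis) of miR-146a-5p (top) and miR-146b-5p (bottom) in each library of cortex, heart and lungs, by time and dose, with 1 point per mouse and a line at the group median. Diamonds mark mice FP91 to FP96 and FPB2, which hold the 7 highest lung values of both miRNAs, and squares mark the 4 libraries nearest another tissue.

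A ratio within a library does not depend on its scaling, so the loci were compared mouse by mouse. Among libraries that did not stand apart, miR-146b-5p exceeded miR-146a-5p in 60 of 60 cortex libraries, with a ratio of 3.48 to 8.88 and a median of 4.85. In lungs it did so in 53 of 53, with a ratio of 1.3 to 3.39 and a median of 2.27. In heart it was the higher one in 19 of 62 only, where the ratio ran between 0.455 and 2.66 with a median of 0.728. The order of the tissues was cortex, lungs, heart, and in the heart the order of the loci turned round in most mice.

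The difference between tissues was then taken within each mouse, on the log2 ratio of miR-146b-5p to miR-146a-5p with 1 added to both values. Cortex exceeded heart by 2.55 ± 0.72 (SD) in 63 of 63 mice, with means of 2.22 and -0.33. Cortex exceeded lungs by 1.09 ± 0.52 in 60 of 62 mice. Heart fell below lungs by a mean difference of -1.46 ± 0.74, with heart higher in 2 of 63. In all 3 pairs the two-sided paired permutation test gave an adjusted p of 1e-05, the smallest that 100000 resamples can give. The pattern held in sham mice alone, where the differences were 2.46 (n = 15, higher in cortex in 15), 0.81 (n = 15, higher in cortex in 13) and -1.61 (n = 16, higher in heart in 0), with permutation adjusted p of 0.000105, 0.00039 and 6e-05. The 2 lung-like cortex libraries had ratios of 2.38 and 2.11, inside the range of the lungs and below every cortex library that did not stand apart, and the lung-like heart library of FP38 had 2.05.

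**Figure D2:**
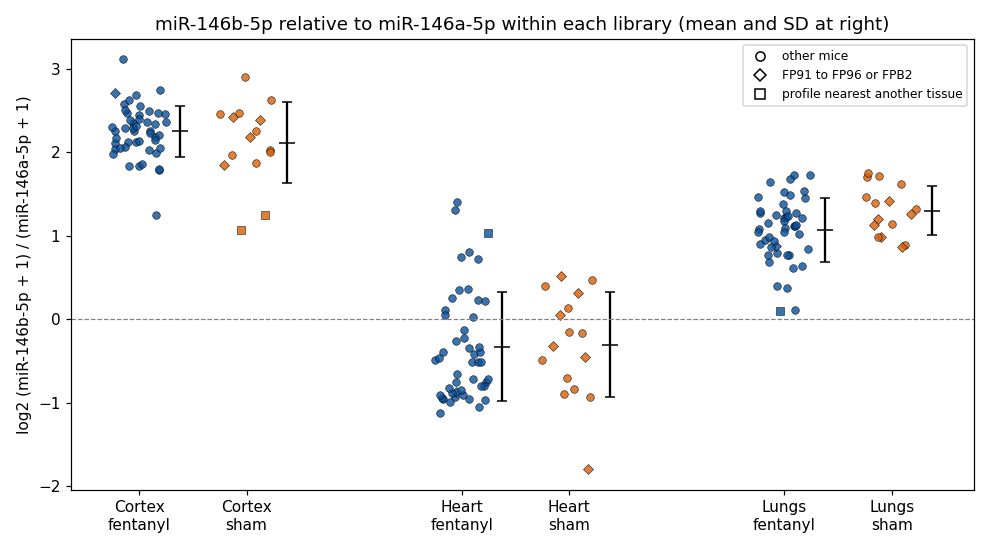
Log2 ratio of miR-146b-5p to miR-146a-5p (1 added to both) within each library, fentanyl mice left of sham mice in each tissue, with mean and SD at the right of the points. Cortex lies highest, lungs in the middle and heart around and below 0, where both loci give equal values, and fentanyl and sham points overlap in every tissue.

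The median ratio was lower in FP16 to FP58 than in FP59 to FP88 in each tissue, which was not tested. It was 2.13 against 2.64 in lungs and 4.79 against 5.21 in cortex. In heart the median was 0.604 in FP16 to FP58, with miR-146b-5p higher in 5 of 32 mice. It was 0.896 in heart in FP59 to FP88, with miR-146b-5p higher in 11 of 24. Within FP59 to FP88 the median was 1.03 in LD50 mice (8 of 14 higher) and 0.798 in sham mice (3 of 10 higher). The single highest heart ratio, 2.66, came from LD50 mouse FP66 at 24h, with 330 TMM-scaled reads of miR-146b-5p against 124 of miR-146a-5p. The ratio was next set between fentanyl and sham mice within each time. The mean difference in log2 ratio was -0.02 in heart (-0.33 in fentanyl mice, -0.30 in sham mice; permutation adjusted p = 0.897) and 0.12 in cortex (2.25 in fentanyl mice, 2.13 in sham mice; permutation adjusted p = 0.509). Without the 2 lung-like libraries the cortex difference was -0.01. In lungs it was -0.23 ± 0.11 (SE; 1.07 in fentanyl mice, 1.30 in sham mice) with all libraries, -0.29 ± 0.15 without FP91 to FP96 and FPB2, -0.20 ± 0.13 without libraries standing apart, and 0.10 ± 0.14 for LD50 against sham within FP59 to FP88, all given without a test. The SE was 0.11 in cortex and 0.18 in heart.

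The 3p arm was a minor product of Mir146b in every tissue. Summed over all libraries, it made up 0.342% of the hairpin's reads in cortex (439 of 3p beside 127889 of 5p), 0.261% in heart (49 beside 18736) and 0.204% in lungs (714 beside 349109). Over libraries that did not stand apart, the shares of the 3p arm were 0.378%, 0.240% and 0.225%. The 3p arm was at 0 reads in 41 of all heart libraries, which had 24 to 503 reads of the 5p arm and so allow a 3p share of 0.596% to 12.5% each (3 reads as the limit, for counting error only). The same count was 1 library in lungs and 0 in cortex. The 3p arm of miR-146a was rarer still, with 28, 13 and 93 reads in cortex, heart and lungs. As log2 of 5p over 3p, cortex lay below lungs by -1.26 ± 1.27 (SD) on average (higher in cortex in 9 of 62 mice) and heart below lungs by -2.14 ± 1.52 (higher in heart in 3 of 63), both with a permutation adjusted p of 1e-05 and with 1 added to each value. The size of heart less lungs follows the added constant, at -0.87 (higher in heart in 23 of 63, permutation adjusted p = 0.000135) with 0.25 added and -3.11 (1 of 63) with 4 added. The size of cortex less lungs follows it as well. It was -1.01 (higher in cortex in 12 of 62, permutation adjusted p = 3e-05) with 0.25 added and -1.63 (4 of 62) with 4 added. Cortex over heart was 0.79 ± 1.04 (adjusted p = 1e-05, permutation) with 1 added to each value and -0.24 (permutation adjusted p = 0.167) with 0.25 added, so its sign follows the added constant. Since the heart had few 3p reads, its arm ratio is not firmly measured at this depth. With 3p values this low in every tissue, a ratio with a constant added largely follows the 5p level, which was highest in lungs. These tests therefore cannot decide whether use of the arms differs between tissues.

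Mice high for one locus were high for the other, most closely in cortex and lungs. Across libraries that did not stand apart, the log2 levels of miR-146a-5p and miR-146b-5p had a Pearson r of 0.90 in cortex (Spearman rho 0.90, n = 60), 0.92 in lungs (rho 0.89, n = 53) and 0.51 in heart (rho 0.47, n = 62). By permutation, adjusted p over the family of 9 relations was 4.5e-05 for both measures in cortex and lungs, and 0.00015 (r) and 0.00078 (rho) in heart. Without the 2 libraries farthest from the median of miR-146a-5p, r was 0.88 in cortex, 0.89 in lungs and 0.40 in heart. Within the number ranges, r was 0.94, 0.93 and 0.50 for FP16 to FP58 and 0.88, 0.91 and 0.61 for FP59 to FP88 in cortex, lungs and heart. Points of a tissue share its scaling.

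In contrast, the level in one tissue of a mouse told little of the level in another. For the 6 relations of the same miRNA between 2 tissues, r ran from -0.07 to 0.15 over 51 to 58 mice, and rho from -0.03 to 0.06. The smallest permutation adjusted p was 0.665. When the 2 mice farthest from the median were left out, none of the 6 values of r lay outside -0.13 to 0.08.

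**Figure D3:**
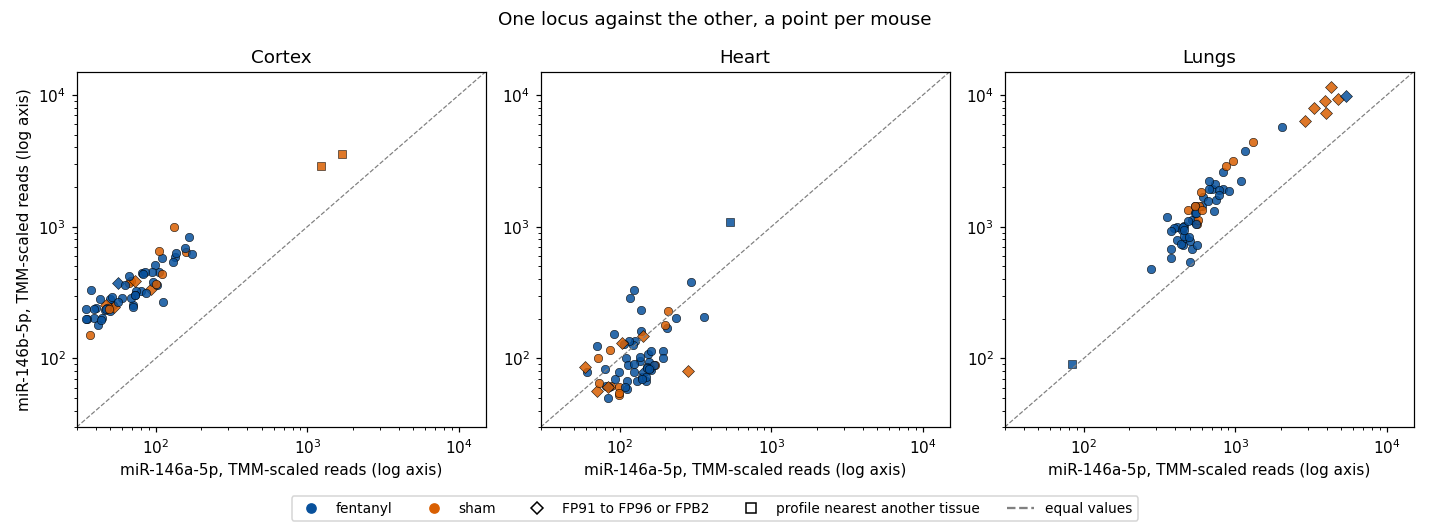
miR-146b-5p against miR-146a-5p in TMM-scaled reads (both axes log), 1 point per mouse, blue for fentanyl and orange for sham, with the dashed line at equal values. Points lie above the line in all 63 cortex and all 63 lung libraries and on both sides of it in heart, and diamonds (FP91 to FP96 and FPB2) extend the lung cloud upwards along its own direction.

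The miRNAs whose levels followed the pair most closely were listed for each tissue, by Pearson r over the same libraries, and miR-30d-5p and miR-143-3p were among them in both cortex and lungs. In cortex, both members were followed by miR-30d-5p (r = 0.84 with miR-146a-5p, 0.89 with miR-146b-5p), miR-384-5p (0.78 and 0.82) and miR-143-3p (0.71 and 0.79). The fifth name was miR-7224-3p (0.76) for miR-146a-5p and miR-30a-5p (0.76) for miR-146b-5p. In lungs, both were followed by miR-542-3p (0.74 and 0.79) and miR-449a-5p, a miRNA of multiciliated cells (0.71 and 0.79). The remaining names were miR-30d-5p (0.71) and miR-134-5p (0.69) for miR-146a-5p, and miR-30e-5p (0.75) and miR-143-3p (0.74), which is abundant in smooth muscle, for miR-146b-5p. In cortex and lungs the closest miRNA to each member was the other member. In heart this was not so. There miR-24-3p (0.52) came before miR-146b-5p (0.51), let-7i-5p (0.47), let-7g-5p (0.47) and miR-379-5p (0.43) for miR-146a-5p. For miR-146b-5p the names were miR-541-5p (0.59), let-7i-5p (0.53), miR-30f (0.52), miR-146a-5p (0.51) and miR-341-3p (0.51). These are descriptions of 481, 370 and 319 miRNAs compared in cortex, lungs and heart.

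In lungs, fentanyl mice had lower levels than sham mice over all libraries, and the size of the difference depended on 7 mice. At 24h, miR-146b-5p had 731 to 1949 TMM-scaled reads (median 1022) in 12 fentanyl mice, against 8001, 6353, 7244 and 9013 in the sham mice. At the same time miR-146a-5p had 376 to 834 (median 516) in fentanyl mice, against 3328, 2903, 3958 and 3910 in sham mice. No fentanyl mouse reached the sham values at 24h, and all 4 of these sham mice are FP91 to FP94.

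At 0h the sham group split. miR-146b-5p had 543 to 3727 (median 1039) in fentanyl mice, against 1045, 1443, 9410 and 11431 in sham mice, the high pair being FP95 and FP96. miR-146a-5p likewise had 355 to 1157 (median 475) in fentanyl mice, against 561, 579, 4764 and 4277 in sham mice. The other 2 sham mice, FP87 and FP88, lay within the fentanyl range.

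At 6h and 7d the groups overlapped. miR-146b-5p at 6h had 90.4 to 9811 (median 1063) in fentanyl mice, against 2866, 3133, 1347 and 1121 in sham mice. Both extremes of the fentanyl group are libraries singled out above, the lowest being the heart-like lung library of FP38 and the highest that of FPB2. At 7d it had 477 to 5689 (median 1585) in 11 fentanyl mice, against 4396, 1439, 1821 and 1339 in sham mice. For miR-146a-5p the values were 84.0 to 5355 (median 515) at 6h in fentanyl mice, against 874, 962, 488 and 566 in sham mice, and 278 to 2024 (median 718) at 7d in fentanyl mice, against 1298, 545, 591 and 605 in sham mice.

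Over all 4 times and all libraries, the log2 fold change of fentanyl over sham in lungs was -1.17 ± 0.24 (SE) for miR-146a-5p and -1.40 ± 0.29 for miR-146b-5p, the limma estimate on log2(value + 1). By time it was -1.61 and -1.64 at 0h, -0.21 and -0.71 at 6h, -2.78 and -2.80 at 24h, and -0.08 and -0.46 at 7d. In this contrast limma called 125 of the 371 miRNAs tested, 33.7%, at an adjusted p under 0.05 (64 higher and 61 lower in fentanyl mice), and nothing is read from that share for the members, which were chosen on it. Without FP91 to FP96 and FPB2 there is no sham group at 24h, and the change over 0h, 6h and 7d was -0.24 ± 0.23 for miR-146a-5p and -0.52 ± 0.31 for miR-146b-5p. In that setting 20 of 357 miRNAs were called, or 5.6%. With all libraries of the same 3 times the change was -0.64 ± 0.32 and -0.94 ± 0.38. LD50 over sham among mice FP59 to FP88, the only range with both, was 0.15 ± 0.19 for miR-146a-5p and 0.25 ± 0.27 for miR-146b-5p, so the direction was the opposite one. Over all times of that range, miR-146a-5p had 456 to 1157 (median 667) in 13 LD50 mice, against 488 to 1298 (median 585) in 10 sham mice, and miR-146b-5p had 731 to 3727 (median 1751) in LD50 mice, against 1045 to 4396 (median 1442) in sham mice.

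The 7 mice were then set against the other 56 in lungs. miR-146a-5p had 2903 to 5355 in FP91 to FP96 and FPB2, against 84.0 to 2024 in the others, a log2 difference of 2.82. miR-146b-5p had 6353 to 11431 in the 7, against 90.4 to 5689 in the others, a log2 difference of 2.79. Among 371 miRNAs, these differences ranked 14 and 15. The 2 sets of mice did not overlap for 42 of 371 miRNAs, 11.3%, both members among them. FPB2, an LD10 mouse of 6h, sat with the 6 sham mice at 5355 and 9811, and the 3 other LD10 mice of 6h had 376, 472 and 461 for miR-146a-5p and 675, 818 and 1004 for miR-146b-5p.

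Depth and the sums of some cell type marker miRNAs differed in the 7 mice too. A sum need not hold for each miRNA of a list. At 24h, where all sham mice are FP91 to FP94, the called leukocyte markers went in both directions between fentanyl and sham. So did the called epithelial markers. The lung libraries of the 7 mice had 500457 to 815001 reads, under 0.25 of the lung median in each case. Leukocyte marker miRNAs (miR-142a-3p, miR-142a-5p, miR-150-5p and miR-223-3p) summed to 9674 to 20376 (median 16537) in the 7, against 4704 to 16259 (median 9928) in the other 56. Epithelial markers (the miR-200 and miR-141 family, 5 miRNAs) summed to 14865 to 19686 in the 7, against 987 to 9916 in the others. Red cell markers (3 miRNAs) ran the other way, at 19382 to 32519 against 27913 to 167070, and endothelial markers (2 miRNAs) overlapped, at 59754 to 70835 against 41995 to 84948. The muscle miRNA miR-1a-3p had the largest difference of all 371, a log2 difference of 5.49, with 1572 to 5408 TMM-scaled reads in the 7, against 16.6 to 617 in the others. Other cardiac muscle miRNAs did not follow it between fentanyl and sham over all lung libraries. There the log2 fold change was -2.21 for miR-1a-3p, 0.21 for miR-133a-3p and 0.16 for miR-208a-3p, so miR-1a-3p does not stand for its list. Rank 2 was miR-7a-5p (log2 difference 4.55), at 90.9 to 152 in the 7, against 0 to 11.5 in the others. Rank 3 was miR-24-3p (4.27), at 24037 to 38239 against 725.5 to 2664. miR-206-3p, a skeletal muscle miRNA, ranked 4 and overlapped, at 22.2 to 252 in the 7, against 0 to 97.4 in the others. The cardiac muscle list as a whole (4 miRNAs) summed to 3130 to 10516 in the 7, within the range of the others. That range includes 158680 in the heart-like lung library of FP38. The same library gave the ends 4704 (leukocyte), 987 (epithelial) and 167070 (red cell) of the others. The part of depth or of these cell types in the difference was not tested. The 3 other lung libraries of low depth had 502 to 962 for miR-146a-5p and 543 to 3133 for miR-146b-5p. In the other tissues of the 7 mice no such level was seen, with the lung-like cortex library of FP96 as the exception. Their heart libraries had 59.3 to 283 for miR-146a-5p and 56.3 to 149 for miR-146b-5p, and their other cortex libraries had 46.8 to 92.3 and 246 to 386.

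Each dose was also set against sham in lungs. With all libraries, the log2 fold change over the 4 times for miR-146a-5p was -1.39 ± 0.29 (SE) at HNLD, -1.07 ± 0.29 at LD10 and -1.07 ± 0.30 at LD50. That of miR-146b-5p was -1.69 ± 0.35, -1.35 ± 0.35 and -1.17 ± 0.36 in the same order of doses. Without FP91 to FP96 and FPB2 the values were -0.40 ± 0.27, -0.32 ± 0.275 and -0.0001 ± 0.275 for miR-146a-5p, and -0.80 ± 0.37, -0.71 ± 0.38 and -0.07 ± 0.38 for miR-146b-5p. LD50 had the estimates closest to 0 in this setting. Of its 15 lung mice, 13 have numbers from FP59 to FP88, as all 10 remaining sham mice do, and the HNLD and remaining LD10 mice have numbers from FP16 to FP58, so dose and number range cannot be told apart between HNLD or LD10 and sham. At single times, all 4 LD10 mice of 0h lay close together, at 410 to 449 TMM-scaled reads of miR-146a-5p and 727 to 996 of miR-146b-5p, below all 4 sham mice. LD50 mice of 0h had 543, 1157, 699 and 604 of miR-146a-5p and 1081, 3727, 1921 and 1435 of miR-146b-5p, overlapping FP87 and FP88. At 7d the LD10 mice had 278 to 2024 of miR-146a-5p and 477 to 5689 of miR-146b-5p, on both sides of the sham values.

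Lung doses were compared among fentanyl mice, a contrast that does not use sham. LD50 over HNLD was 0.32 ± 0.30 (log2, SE) for miR-146a-5p and 0.52 ± 0.36 for miR-146b-5p, with limma adjusted p of 0.603 and 0.408, in a contrast where 23 of 371 miRNAs (6.2%) were called. LD10 over HNLD was 0.32 ± 0.29 and 0.34 ± 0.35 (adjusted p = 0.650 and 0.691), and 0.09 ± 0.22 and 0.11 ± 0.30 without the 7 mice, of which FPB2 is the LD10 mouse. Without FP38 as well it was -0.09 ± 0.18 and -0.12 ± 0.26, so its sign rests on these libraries. Without the heart-like library of FP38 and the 7 mice, LD50 over HNLD was 0.14 ± 0.18 and 0.29 ± 0.26. With a term for the number range, which LD50 and HNLD mice nearly do not share, it was -0.29 ± 0.41 and -0.64 ± 0.55. Time among fentanyl mice passed the threshold for neither (F test, adjusted p = 0.917 and 0.945, with 1 of 371 miRNAs called, 0.27%).

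In cortex, both members had lower estimates in fentanyl mice, without passing the threshold, and 2 libraries carried most of it. At 0h miR-146a-5p had 38.9 to 134 TMM-scaled reads (median 70.0) in 12 fentanyl mice, against 69.1, 157, 92.3 and 1223 in sham mice. miR-146b-5p had 179 to 589 (median 306) in fentanyl mice, against 386, 646, 334 and 2906 in sham mice. At 6h miR-146a-5p had 34.6 to 85.8 (median 53.9) in fentanyl mice, against 66.3, 104, 1684 and 36.7 in sham mice. The 3 values far above the rest are those of the lung-like libraries FP96 and FP85, and the others overlapped. At 24h and 7d all groups overlapped, with miR-146b-5p at 233 to 635 and 194 to 842 in fentanyl mice, against 246 to 386 and 236 to 991 in sham mice.

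Over all times, the log2 fold change in cortex was -0.69 ± 0.29 (SE) for miR-146a-5p and -0.56 ± 0.24 for miR-146b-5p, with a limma adjusted p of 0.11 each. limma called 8 of 482 miRNAs, or 1.66%, and 196 had an unadjusted p under 0.05. By edgeR on the recovered reads the changes were -1.46 (adjusted p = 0.000136) and -1.08 (adjusted p = 0.000665), and 110 of 482 miRNAs (22.8%) were called. With a single other sham library left out, the limma adjusted p fell under 0.05 for miR-146a-5p without FP87 (change -0.80), FP95 (-0.77) or FP86 (-0.85) and for miR-146b-5p without FP95 (-0.65) or FP86 (-0.73). Without FP85 alone the changes were -0.39 and -0.35, with an adjusted p of 0.507 each. Without FP96 and FP85 the limma changes were -0.17 ± 0.20 and -0.18 ± 0.19 (adjusted p = 0.999 each), and 0 of 479 miRNAs (0%) were called, with 24 at an unadjusted p under 0.05. edgeR without them gave -0.12 and -0.21, with an adjusted p of 0.999 for both. The marker sums of these 2 libraries stood with the lungs as well, at 11612 and 13761 for the epithelial list against 85.9 to 8126 in cortex libraries that did not stand apart, and at 118380 and 101990 for the endothelial list against 5017 to 10178. By time, the changes of miR-146a-5p and miR-146b-5p were -1.40 and -1.08 at 0h (adjusted p = 0.086 and 0.088), -1.34 and -1.14 at 6h (0.105 each), 0.27 and 0.30 at 24h (0.999 each), and -0.27 and -0.34 at 7d (0.999 each). LD50 over sham within FP59 to FP88 was -0.84 ± 0.54 and -0.78 ± 0.47 (limma adjusted p = 0.894 each), and -0.45 ± 0.27 and -0.50 ± 0.32 without FP85 (0.988 each). By dose over all times, the log2 fold change over sham for miR-146a-5p was -0.81 ± 0.35 at HNLD, -0.55 ± 0.35 at LD10 and -0.70 ± 0.35 at LD50, and that for miR-146b-5p was -0.70 ± 0.29, -0.47 ± 0.29 and -0.51 ± 0.29 (limma adjusted p of 0.201 to 0.257). Without FP96 and FP85 all 6 estimates lay between -0.32 and -0.03. LD50 over HNLD was at 0.11 ± 0.34 and 0.19 ± 0.28 (adjusted p = 0.995 each), and time among fentanyl mice had an adjusted p of 1.00 for both (F test).

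In heart, no difference between fentanyl and sham mice passed the threshold, and the estimates pointed up. miR-146a-5p had 60.9 to 532 TMM-scaled reads (median 136) in 48 fentanyl mice, against 59.3 to 283 (median 99.0) in 16 sham mice. miR-146b-5p had 50.3 to 1093 (median 89.9) in fentanyl mice, against 52.9 to 230 (median 83.0) in sham mice. The highest value of both is from the lung-like library of FP38. The log2 fold change over all times was 0.31 ± 0.16 (SE) and 0.29 ± 0.22, with a limma adjusted p of 0.986 each. limma called 0 of 320 miRNAs (0%), with 10 at an unadjusted p under 0.05, and edgeR and DESeq2 called 0 as well, with 17 and 20. Without FP38 the changes were 0.26 ± 0.14 and 0.22 ± 0.19.

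At 0h miR-146a-5p in heart had 60.9 to 203 (median 128) in fentanyl mice, against 86.6, 87.4, 70.6 and 59.3 in sham mice, and 10 of 12 fentanyl mice lay above all 4 sham mice. At 7d it had 108 to 358 (median 158) in fentanyl mice, against 99.2, 98.8, 72.6 and 199 in sham mice, and every fentanyl mouse lay above 3 of the 4. The log2 fold change was 0.68 ± 0.32 at both times, with limma adjusted p of 0.793 and 0.998, and it was 0.11 at 6h and -0.24 at 24h. Among fentanyl mice alone, miR-146a-5p at 7d exceeded 0h by 0.54 (F test over the 4 times, unadjusted p = 0.043, adjusted p = 0.395), in a test that called 1 of 320 miRNAs (0.312%). Without the libraries standing apart the unadjusted p was 0.00615 and the adjusted p 0.177. For miR-146b-5p the adjusted p was 0.828. By dose, miR-146a-5p stood at 0.42 ± 0.19 over sham for HNLD, 0.33 ± 0.19 for LD10 and 0.17 ± 0.19 for LD50, and miR-146b-5p at 0.36 ± 0.26, 0.02 ± 0.26 and 0.48 ± 0.26 (limma adjusted p of 0.661 to 0.990). LD50 over HNLD was -0.24 ± 0.19 for miR-146a-5p and 0.11 ± 0.26 for miR-146b-5p (adjusted p = 0.735 and 0.923). LD50 over sham within FP59 to FP88 was 0.39 ± 0.23 for miR-146a-5p and 0.66 ± 0.34 for miR-146b-5p (limma adjusted p = 0.782 each).

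**Figure D4:**
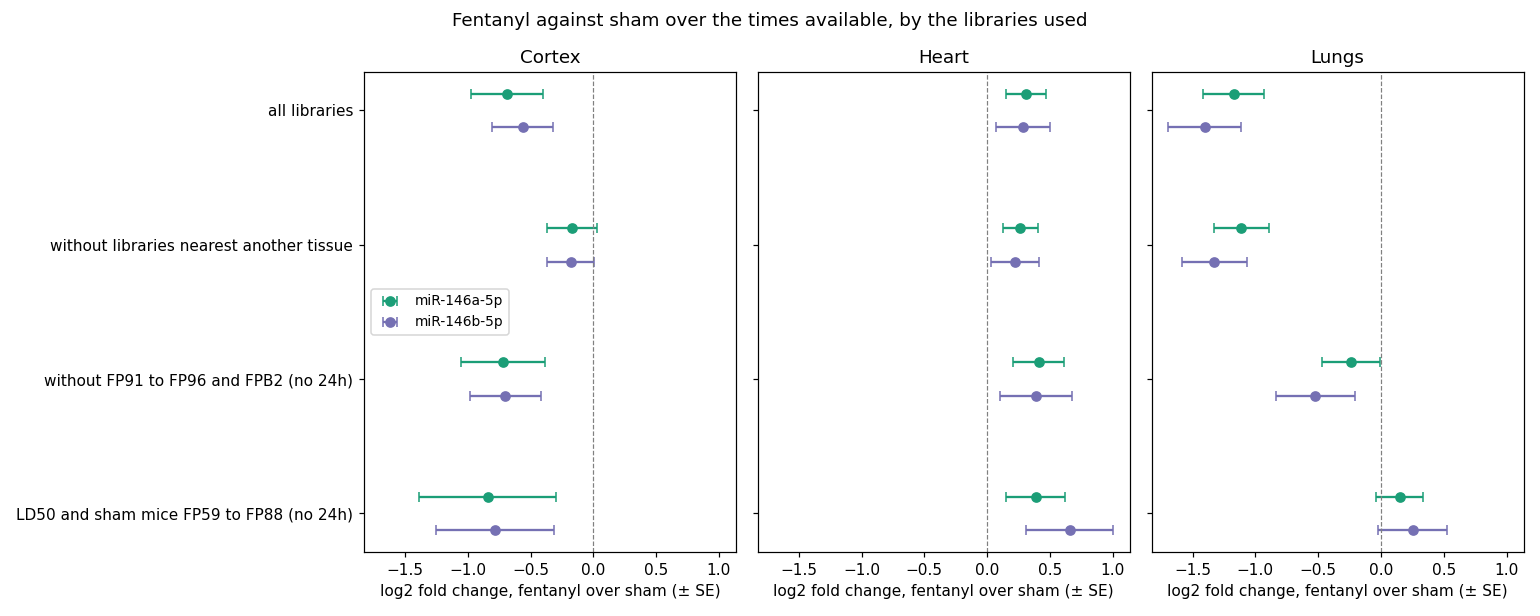
Log2 fold change of fentanyl over sham (limma, point and SE) for miR-146a-5p and miR-146b-5p in each tissue, with all libraries and with 3 restricted sets (rows). Lung values move from -1.17 and -1.40 with all libraries to 0.15 and 0.25 for LD50 against sham within FP59 to FP88, cortex values shrink to -0.17 and -0.18 without the lung-like libraries, and heart values stay above 0.

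Other miRNAs known to follow Toll-like receptor or NF-κB signals were counted from a list of 12, which holds miR-155, miR-21a, miR-132, miR-212, miR-147, miR-9, miR-187, miR-125b and the 3p arm of miR-146a. In lungs, 10 were tested in the contrast of fentanyl with sham over all libraries, and 2 were called higher and 4 lower, beside 33.7% of all 371 miRNAs called in that contrast. The higher ones, by limma, were miR-147-3p (log2 fold change 0.54, adjusted p = 0.021) and miR-187-3p (0.46, 0.000232), both induced in macrophages by lipopolysaccharide. The largest falls were miR-9-5p, which is also a neuronal miRNA (-1.08, adjusted p = 0.000952), miR-132-3p (-0.58, 0.000146) and miR-132-5p (-0.54, 0.00454), all by limma. Another neuronal marker, miR-124-3p, was lower as well (-0.97, limma adjusted p = 0.034), and miR-128-3p was at -0.36 (0.086). The part of neuronal RNA in the value of miR-9-5p was not tested. miR-155-5p, the best known inducible miRNA of activated leukocytes, was at -0.35 (adjusted p = 0.034). The list's median was 0.08, beside 0.04 over all miRNAs tested. Without FP91 to FP96 and FPB2, 9 were tested, and miR-9-5p was the only one called, at -1.66 (limma adjusted p = 0.00164), beside 5.6% of all 357 miRNAs. Some estimates kept their direction, at 0.55 for miR-147-3p (limma adjusted p = 0.190), -0.47 for miR-132-3p (0.070) and 0.34 for miR-187-3p (0.114). Those of miR-21a-5p and miR-21a-3p shrank from 0.15 and 0.28 with all libraries to 0.03 and 0.10. Those of miR-125b-5p and miR-212-3p changed sign, from 0.17 and 0.006 to -0.11 and -0.14, and miR-155-5p was at 0.02 (0.963). The restricted estimates also lack the time at which every sham mouse is among those left out. Without all libraries standing apart, the 7 among them, miR-9-5p, miR-132-3p, miR-147-3p and miR-187-3p were called, 4 of 9, beside 37 of 351 miRNAs (10.5%). Without the 7, the neuronal list had 2 of 3 called, miR-9-5p and miR-124-3p (-1.66, limma adjusted p = 0.017), and leukocyte and epithelial markers had 0 of 4 and 0 of 5, beside the same 5.6%. With all libraries these counts were 2 of 3 (both lower), 2 of 4 (1 higher, 1 lower) and 3 of 5 (all lower), beside 33.7%.

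In cortex, 8 of the 12 were tested and 0 were called in either direction, with 1.14 ± 0.44 for miR-9-5p and 0.68 ± 0.33 for miR-132-3p, the most abundant members (adjusted p = 0.111 and 0.119, limma). The list's median was 0.50 beside 0.09 over all miRNAs, and 0.00 beside -0.01 without the 2 lung-like libraries. In heart, 8 were tested and 0 called, with 0.06 ± 0.08 for miR-21a-5p and 0.00 ± 0.10 for miR-125b-5p (adjusted p = 0.986 and 0.990), and medians of 0.05 for the list and 0.01 over all.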

How the data were processed

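Small RNA was sequenced by the authors (Illumina TruSeq libraries, NextSeq 500) from total RNA of cortex, heart and lungs. Per the submitters' processing notes, reads were checked with FastQC, aligned with Bowtie 1.0.0 to mm9 and scaled by TMM with edgeR. The deposited values are this normalized signal, reads divided by 1 factor per library, in 1 table for each tissue, so a value near that of 1 read is imprecise. Whole reads were recovered: 100% of low values (up to 50 reads) were whole within 0.1 read. Columns were matched to mice through the labels, with 0 left out, and the heart column of FP91, named for another dose, was kept as sham at 24h after its label. Libraries were deposited from separate mice, and p-values measure the spread between these.

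The main test was limma 3.58.1 (R 4.3.3, mean trend) on log2(value + 1) with a mean for each of the 16 groups of a tissue, for the 482 cortex, 320 heart and 371 lung miRNAs that reached 10 in 4 or more libraries. Fold changes on this scale understate changes of low miRNAs. Adjusted p is the Benjamini-Hochberg value over all miRNAs tested in a tissue. Recovered reads went through edgeR 4.0.16 and DESeq2 1.42.0 as alternatives. Ratios and correlations used permutation tests with 100000 resamples (Python 3.11.15, numpy 2.4.6, pandas 2.3.3, scipy 1.17.1; figures with matplotlib 3.10.9). Libraries outside the largest cluster of an average-linkage tree (distance 1 minus Pearson r, height 0.05) are said to stand apart. Nearest tissue was decided over 277 miRNAs. Pairing is by mouse, since tissues of 1 number come from 1 animal. Every pair of libraries within a group differed beyond sampling noise (lowest chi-square per degree of freedom 13.1, 19.7 and 10.5 in cortex, heart and lungs). The limma step was also run on simulated counts that held no number ranges and no libraries resembling another tissue. That run therefore does not bear on either.

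Named miRNAs are the 3 members, for each 5p form in each tissue the 5 miRNAs of highest Pearson r, and, from the list of other responsive miRNAs, the 4 called ones that changed most or, with no call, the 2 of highest mean level (miR-155-5p and miR-187-3p in lungs were added after their values were seen). Outside this rule, miR-21a-5p, miR-21a-3p, miR-212-3p and miR-125b-5p are named in lungs. So are members of the cell type lists and the miRNAs that differed most in the 7 mice. Members and lists were chosen with earlier results of these data known. Alternatives were pseudocounts of 0.25 and 4, no filter, CPM, library weights, leaving out libraries, other sham groups as reference, a term for the number range and single ranges. Those chosen after seeing the data were leaving out libraries nearest another tissue (alone, with the 7 mice or within FP59 to FP88) and 0h, 6h and 7d only. The ratio of the loci within FP59 to FP88, and leaving out the 7 mice together with libraries standing apart, were also chosen then.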

Additional observations from a re-analysis of the deposited data

Results flagged for a closer look

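Among 138 sets of 4 mice (miR-146a-5p, miR-146b-5p and their ratio in each group of 4), 12 had 1 mouse far from the other 3 by Dixon's gap over range at its 95% critical value. Chance flags about 1 in 20, and here the share was 8.7%.

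In lungs, LD10 mouse FPB2 at 6h stood off for miR-146a-5p (gap 0.914, 5355 TMM-scaled reads against 376 to 472) and miR-146b-5p (gap 0.852, 9811 against 675 to 1004). LD50 mouse FP29 at 6h stood off for the ratio of miR-146b-5p to miR-146a-5p (gap 0.881, 1.56 against 2.88 to 3.13). It is also 1 of the 2 LD50 mice with a number in FP16 to FP58. Sham mouse FP81 at 7d stood off for miR-146a-5p (gap 0.879, 1298 against 545 to 605).

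In heart, HNLD mouse FP38 at 6h stood off for miR-146b-5p (gap 0.831, 1093 against 101 to 152), in the library whose profile is nearest the lungs. LD10 mouse FP56 at 24h was low for miR-146a-5p (gap 0.902, 83.3 against 150 to 160) and miR-146b-5p (gap 0.894, 50.3 against 81.3 to 86.0). HNLD mouse FP47 at 0h was low for miR-146a-5p (gap 0.8291, 70.3 against 130 to 148). Sham mouse FP84 at 7d was high for miR-146b-5p (gap 0.839, 180 against 52.9 to 64.4).

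LD10 mouse FP41 at 7d stood off for the ratio in 2 tissues, low in cortex (gap 0.900, 3.59 against 4.99 to 5.11) and high in heart (gap 0.881, 0.857 against 0.532 to 0.562). In cortex, LD50 mouse FP74 at 0h was low for miR-146a-5p (gap 0.880, 41.7 against 98.3 to 110).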

How the results depend on the processing

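Ratios between tissues kept direction and side of the threshold in 35 of 36 repeats. Unpaired permutation tests, on the difference of tissue means over all libraries, changed no call. They gave 2.54, 1.09 and -1.45 for miR-146b-5p over miR-146a-5p and 0.78, -1.33 and -2.11 for the arms (cortex less heart, cortex less lungs, heart less lungs). The arms of cortex less heart turned to -0.24 with 0.25 added, where 41 heart libraries had no 3p read.

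In cortex, all times, edgeR gave -1.46 and -1.08 and DESeq2 -1.57 and -1.18 for miR-146a-5p and miR-146b-5p, past the threshold. Calls among all miRNAs were 110 by edgeR and 93 by DESeq2, against 8 by limma, and 0 by limma without the lung-like libraries. Leaving out single libraries gave -0.85 to -0.39 and -0.73 to -0.35 (at 0h -1.88 to -0.51 and -1.43 to -0.40, at 6h -1.99 to -0.17 and -1.81 to -0.29), and -0.64 to 0.053 for miR-146b-5p at 7d. The threshold was passed at 0h without FP87 or FP95 and at 6h without FP77 or FP86, for both miRNAs. With the mean of all sham groups, 24h turned to -0.66 and -0.43. CPM moved the median of all cortex miRNAs to 0.20, against 0.09, and miR-146a-5p lay -0.77 and -0.78 from these medians.

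In heart, miR-146a-5p at 6h turned to -0.068 with library weights, -0.074 without FP38, -0.10 without FP38 and the 7 mice, and -0.11 by edgeR without FP38, and single libraries moved it over -0.16 to 0.35. At 24h it turned to 0.31 without low-depth libraries, 0.11 without FP92, and 0.085 with the mean of all sham groups (single libraries -0.48 to 0.11). miR-146b-5p at 6h turned to -0.0048 without FP38 and the 7 mice and -0.086 by edgeR without FP38, and at 24h ran over -0.41 to 0.017. None of these was past the threshold.

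In lungs, single libraries moved the all-times change over -1.30 to -1.04 for miR-146a-5p and -1.55 to -1.26 for miR-146b-5p. For miR-146a-5p it was -0.20 without low-depth libraries, -0.14 without those standing apart, -0.16 without FP38 and the 7 mice, 0.37 with a term for the number range and 0.15 within FP59 to FP88. For miR-146b-5p it was -0.34 without those standing apart, 0.50 with the term and 0.25 within FP59 to FP88. Calls were 125 with all libraries and 20 without the 7 mice, and for LD50 over HNLD 23 by limma, 46 by edgeR and 55 by DESeq2.

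The ratio of the loci, fentanyl less sham, turned to -0.013 in cortex without lung-like libraries and to 0.27 in heart within FP59 to FP88. Correlations between tissues had no fixed sign: cortex and lungs for miR-146a-5p, -0.041 as deviations from group means and -0.068 within FP16 to FP58; heart and lungs, 0.083 within FP59 to FP88; cortex and heart for miR-146b-5p, 0.066, 0.013 (all libraries) and 0.016; heart and lungs, -0.050, -0.29 and -0.16. With all libraries, heart and lungs had r of -0.28 for miR-146a-5p and -0.29 for miR-146b-5p, each with a permutation adjusted p of 0.045 and with rho of -0.14 and -0.07 (0.576 and 0.758). Both rest on libraries standing apart, without which r was -0.07 and 0.02. Apart from single libraries left out, repeats of fentanyl against sham were counted as unchanged in 454 cases. In cortex and heart, unchanged means the same direction and side of the threshold. There, 14 others passed the threshold and 14 changed sign. In lungs, which had no test, unchanged means within the residual SD of the main value, whatever the sign, and 38 moved further. The causes were not tested. Heart depth limits what the 3p arm can show.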
